A study of Mus musculus with 22 samples.

Results

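The 8 genes described here are a list of taste signaling genes of tuft cells, and not all of them were highest in tuft cells. They are Trpm5, Gnat3, Gng13, Gnb3, Plcb2, Itpr3, Tas1r3 and Chat, chosen by name, and they are 8 of the 24421 genes of the count files. RNA-seq had been run on 22 libraries of cells sorted from the colon of untreated wild type C57BL/6N male mice aged 5 to 7 weeks, each library holding at least 2500 cells. All cells were live and Epcam+, and were negative for Cd31 and Cd45. Stem cells (3 libraries) were Cd44highest, Cd24low and Ckit-, and absorptive progenitors (AbsPro, 3 libraries) differed from them in being Cd44med/hi. The SecPDG group (4 libraries), which holds secretory progenitors, deep crypt secretory cells and goblet cells, was Cd44hi with medium Cd24 and Ckit. Tuft cells (5 libraries) were Ckit+ and Cd24hi. Enterocytes (5 libraries) and enteroendocrine cells (EEC, 2 libraries) were both Cd44low/-, the former Cd24- and the latter Cd24+. Stem and AbsPro libraries came from single mice, whereas the rarer cell types needed pools of several mice, and replicates came from independent mice or pools and independent sorts.

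In taste buds, a ligand binds a G protein-coupled receptor such as a dimer that includes Tas1r3, and the receptor activates the G protein gustducin, whose alpha subunit is Gnat3 and whose gamma subunit is Gng13. The freed beta and gamma subunits activate phospholipase C beta (Plcb2), which makes IP3. IP3 opens the receptor channel Itpr3 on the endoplasmic reticulum, and the calcium released opens Trpm5, a cation channel that depolarizes the cell. Tuft cells of the gut use the same pathway to sense luminal content, and they also hold Chat, the enzyme that makes acetylcholine.

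The sequences around the starts of 5 members are shown first, as annotated by RefSeq on the GRCm38.p6 build, because 4 of them (Trpm5, Gnat3, Plcb2 and Chat) moved together and Itpr3 did not. Each runs 5′ to 3′ on the gene's strand, from 250 bases before the start of transcription to 50 bases after it. Capitals mark any match, on either strand, to the POU octamer ATGCAAAT, its relaxed form ATGCNAAT, the TATA box TATAAA, the CCAAT box CCAAT or the GC box GGGCGG. The relaxed form includes every octamer match.
Trpm5, minus strand, chr7:143094593-143094892: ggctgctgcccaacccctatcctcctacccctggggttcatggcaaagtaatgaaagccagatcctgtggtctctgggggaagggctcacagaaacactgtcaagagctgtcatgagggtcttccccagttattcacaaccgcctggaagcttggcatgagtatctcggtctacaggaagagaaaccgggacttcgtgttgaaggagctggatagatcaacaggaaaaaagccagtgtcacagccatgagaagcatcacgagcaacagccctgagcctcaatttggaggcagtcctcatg
Gnat3, plus strand, chr5:17962320-17962619: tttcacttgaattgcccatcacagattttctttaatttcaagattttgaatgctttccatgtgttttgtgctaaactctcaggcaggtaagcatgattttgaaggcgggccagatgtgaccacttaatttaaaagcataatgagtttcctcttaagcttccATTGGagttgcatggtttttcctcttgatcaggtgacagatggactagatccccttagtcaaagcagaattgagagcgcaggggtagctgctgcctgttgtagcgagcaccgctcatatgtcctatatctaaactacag
Plcb2, minus strand, chr2:118728389-118728688: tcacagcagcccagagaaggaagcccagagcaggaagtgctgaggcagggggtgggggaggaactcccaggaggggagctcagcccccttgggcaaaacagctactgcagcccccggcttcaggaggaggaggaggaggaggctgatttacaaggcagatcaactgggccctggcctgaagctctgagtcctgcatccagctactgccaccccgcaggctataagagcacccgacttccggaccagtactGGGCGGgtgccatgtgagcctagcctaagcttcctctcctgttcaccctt
Chat, minus strand, chr14:32465860-32466159: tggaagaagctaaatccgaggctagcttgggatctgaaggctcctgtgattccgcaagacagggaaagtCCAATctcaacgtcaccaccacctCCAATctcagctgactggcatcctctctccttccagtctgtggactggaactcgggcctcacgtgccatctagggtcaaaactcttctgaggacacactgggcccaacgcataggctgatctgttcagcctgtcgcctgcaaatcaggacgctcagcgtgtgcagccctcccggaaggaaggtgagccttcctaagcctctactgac
Itpr3, plus strand, chr17:27057054-27057353: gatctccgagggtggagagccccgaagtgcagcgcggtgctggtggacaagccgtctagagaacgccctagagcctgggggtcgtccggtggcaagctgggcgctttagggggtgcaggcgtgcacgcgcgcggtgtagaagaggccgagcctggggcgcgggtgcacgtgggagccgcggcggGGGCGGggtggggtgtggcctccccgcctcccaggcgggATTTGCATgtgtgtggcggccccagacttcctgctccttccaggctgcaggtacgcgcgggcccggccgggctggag
The octamer is the motif of the POU factors, the family of the tuft cell regulator Pou2f3. It was found in 1 of the 8 member windows, which belong to 7 members, and that 1 window was the one of Itpr3. Among all 32851 windows annotated, 1.74% hold the octamer, and 3.15% hold the relaxed form. No member window held TATAAA, against 13.6% of all windows. A CCAAT box was in 2 of the 8 windows, those of Gnat3 and Chat, against 37.4% of all windows. A GC box was in 4 of the 8 windows, against 35.7% of all windows, and the windows of Plcb2, Itpr3 and both starts of Gng13 held it. A match is a description of these letters and not a site, and sequence outside the window was not analysed here.

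The cell type labels were first set against markers. Of 7 tuft markers that include Dclk1 and the regulator Pou2f3, all 7 were higher in tuft cells than in stem cells, AbsPro, SecPDG and enterocytes, and 6 of 7 were higher than in EECs. Their summed level in tuft cells ran from 21837 to 58633 normalized counts. Stem cells held 83.4 to 145, AbsPro 134 to 180.1 and SecPDG 525 to 908, whereas enterocytes held 447 to 1085 and the EEC libraries 3834 and 7011. A normalized count here is a count divided by the library's TMM-scaled size and multiplied by the mean of these sizes. Other markers were present in the tuft sort too. The 8 goblet and deep crypt secretory markers, none of them at 0, summed to between 783602 and 1181319 in tuft cells and to between 821521 and 3238459 in SecPDG, against 21439 to 35063 in stem cells. Total counts on genes were 4122122 to 22462518 per library. The share of reads assigned to no gene was 40.9% to 49.4% in stem cells, AbsPro and SecPDG. It was 43.4% to 68.0% in tuft libraries, 66.8% to 83.1% in enterocyte libraries and 64.5% or 89.7% in the EEC libraries. It moved with the cell types, and its part in the results was not tested. The names of the deposited count files take 1 form for SecPDG and tuft cells and another for the other 4 cell types, so the comparison of tuft cells with SecPDG lies within 1 form, and the other comparisons of tuft cells cannot be told apart from it.

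Trpm5, Gnat3, Plcb2 and Chat were far higher in tuft cells than in stem cells, AbsPro, SecPDG and enterocytes, whereas Itpr3 and Tas1r3 were not called higher in tuft cells in any comparison by edgeR. Gng13 and Gnb3 could not be called by edgeR, since their means over all libraries were below the minimum of a call. Gng13 was higher in every tuft library than in any other library. Gnb3 had an edgeR adjusted p of 0.0079 against stem cells, and its tuft range overlapped with those of SecPDG, enterocytes and EECs. A gene was called at an adjusted p under 0.01 (edgeR's quasi-likelihood F test, Benjamini-Hochberg over 22781 genes) when its mean across the 22 libraries also reached 50 normalized counts, and 6 of the 8 members reach that mean. Of all genes tested, 7.84% were called higher in tuft cells than in stem cells, and 4 of the 8 members were. The same 4 members were called higher than in AbsPro, where 5.23% of all genes were, and than in SecPDG, where 3.02% were. They were called higher than in enterocytes as well, where 5.78% of all genes were. DESeq2 called 5 members in each of these 4 comparisons, the fifth being Gnb3 against stem cells and AbsPro, Tas1r3 against SecPDG and Itpr3, as lower, against enterocytes. DESeq2 also called more genes in all. It called 2860 higher against stem cells, 2247 against AbsPro and 1517 against SecPDG, where edgeR called 1786, 1192 and 688. Against enterocytes DESeq2 called 1374 higher and 1217 lower, where edgeR called 1316 and 605. Against EECs, 3 members were called higher, beside 4.56% of all genes, and 1 member was called lower, beside 4.74% of all genes. The median log2 fold change of the 8 members was 7.24 against stem cells, with genes absent there set at their lower limit, beside a median of 0.83 over all genes tested. It was 6.13 against AbsPro beside 0.73, 3.91 against SecPDG beside 0.72, 3.43 against enterocytes beside -0.32, and 1.5 against EECs beside -0.08. In sorted bulk samples, fewer cells of a type and less RNA per cell cannot be told apart.

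**Figure D1:**
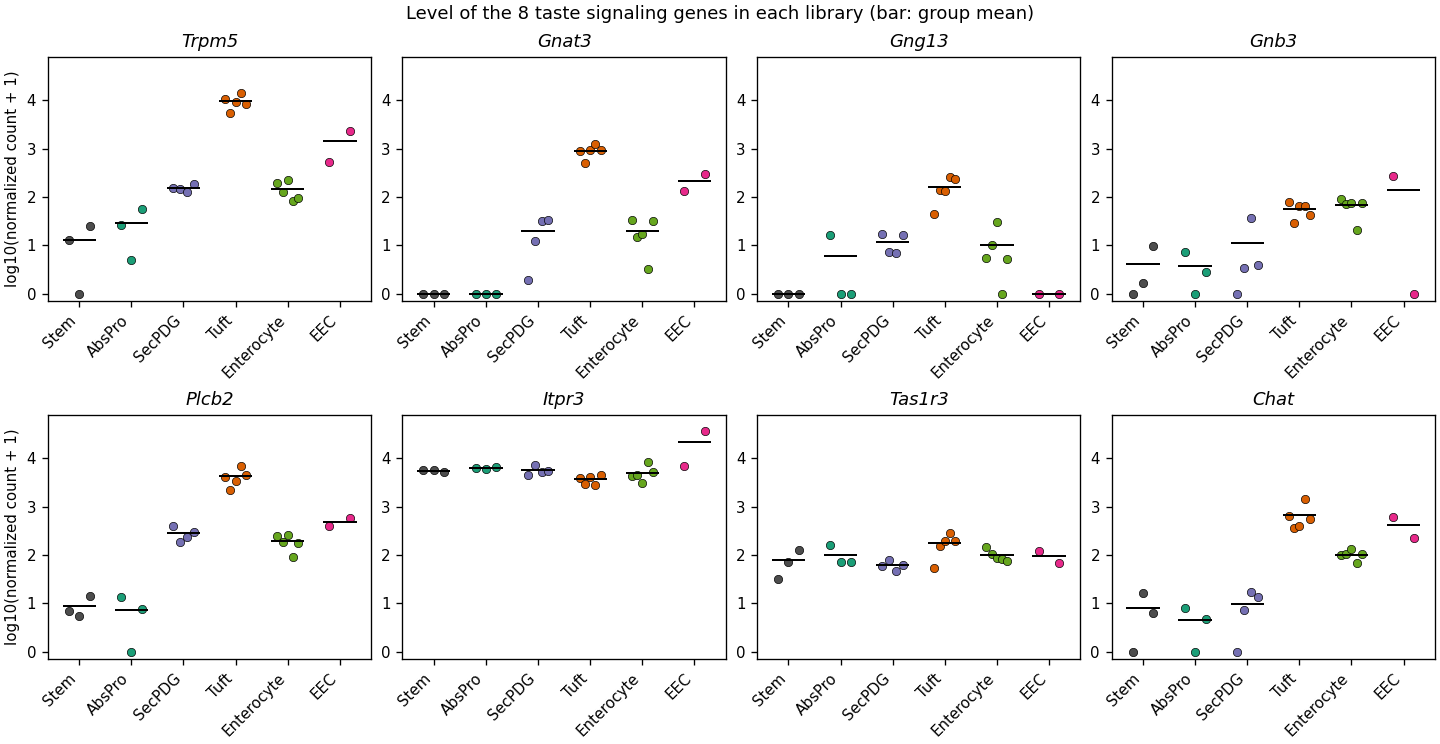
Level of each of the 8 genes in the 22 libraries, as log10 of the normalized count plus 1, by cell type, with 1 point per library and a bar at the group mean. Trpm5, Gnat3, Gng13 and Plcb2 have every tuft library above every library of the other cell types, Itpr3 lies between 2869 and 8377 in all libraries but 1 EEC library, and Tas1r3 overlaps between all cell types.

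Trpm5 lies on the minus strand of chromosome 7 from 143069153 to 143094642 in GRCm38, a protein-coding gene with 6398 exon bases. Its normalized counts in the 5 tuft libraries were 10537, 5506, 9379, 14576 and 8641. The EEC libraries held 533 and 2299, and the SecPDG libraries 154, 145, 124 and 190.0. Enterocytes ranged from 82.1 to 226, AbsPro from 4.07 to 56.3 and stem cells from 0 to 24.3. The tuft range overlapped with no other cell type, EECs lay above SecPDG without overlap, and SecPDG overlapped with enterocytes. The mean of tuft cells was 9728 ± 3290 (SD, n = 5), which is 84.7% of the sum of the 6 cell type means. Tuft cells had a log2 fold change of 9.65 ± 0.64 (SE) against stem cells, with an adjusted p of 1.6e-18 by edgeR, and 5.99 ± 0.42 against SecPDG, with an adjusted p of 3.2e-17. Against EECs it was 2.74 ± 0.45, with an edgeR adjusted p of 5.2e-06, and all 5 tuft libraries were above both EEC libraries. By DESeq2 the adjusted p against EECs was 0.016, and the call was not made. Trpm5 shares 220 exon bases, 3.44% of its own, with Tssc4 on the other strand, and the counting ignored strand. Tssc4 averaged 646 ± 241 (SD, n = 5) in tuft cells.

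Plcb2 (chromosome 2, 118707517 to 118728438, minus strand, 6597 exon bases), the phospholipase that links the G protein to calcium release, followed Trpm5 most closely. In tuft cells it had 4218, 2205, 3412, 6919 and 4576 normalized counts. In SecPDG it had 406, 190.2, 236 and 305, and in the EEC libraries 399.5 and 576. The ranges of SecPDG and EECs overlapped, and both lay wholly below tuft cells. Enterocytes held 89.0 to 262, whereas no stem or AbsPro library exceeded 13.5. The log2 fold change of tuft cells was 9.03 ± 0.57 against stem cells (edgeR adjusted p = 7.9e-20), 9.28 ± 0.60 against AbsPro (3.6e-19) and 3.90 ± 0.32 against SecPDG (5.6e-15). It was 4.48 ± 0.32 against enterocytes (6.2e-18) and 3.11 ± 0.42 against EECs (4.6e-08).

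Gnat3 (chromosome 5, 17962549 to 18019834, plus strand, 1361 exon bases), the alpha subunit of gustducin, was absent from the stem and AbsPro libraries at this depth. All 6 of these libraries had 0 counts, which allows up to 3 counts per group. In tuft cells the normalized counts were 918, 519, 948, 1267 and 942, in the EEC libraries 132 and 306, and in SecPDG 0.95, 11.2, 31.2 and 33.3. Every tuft library lay above every EEC library, and SecPDG overlapped with enterocytes, which ranged from 2.28 to 32.2. Tuft cells were at least 1345-fold higher than stem cells and at least 1147-fold higher than AbsPro, against a floor of 3 counts over the group. The edgeR adjusted p of these comparisons was 1.3e-15 and 7.3e-15. Fitted log2 fold changes were 5.53 ± 0.47 against SecPDG (edgeR adjusted p = 2.8e-14), 5.67 ± 0.46 against enterocytes (3.5e-15) and 2.00 ± 0.43 against EECs (0.00044). The last was not called by DESeq2 (adjusted p = 0.11).

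Gng13 (chromosome 17, 25717171 to 25719406, plus strand, 773 exon bases), the gamma subunit, had fewer counts than Trpm5, Gnat3 and Plcb2 and also peaked in tuft cells. Its normalized counts in tuft cells were 43.9, 143, 131, 266 and 237. The first of these was the lowest by a wide margin, and it still exceeded every other library, the highest of which was an enterocyte library at 28.9. SecPDG held 5.90 to 16.1. No count was found in stem cells or EECs, so tuft cells were at least 249-fold and at least 78.8-fold higher, against a floor of 3 counts over the group. The mean over all libraries was 42.1 normalized counts, below the minimum of 50, so that Gng13 could not be called. Without a minimum mean it was called higher in tuft cells in all 5 comparisons. Its edgeR adjusted p was 6.7e-08 against stem cells, 2.2e-05 against SecPDG and 0.00039 against EECs, with log2 fold changes of 3.91 ± 0.67 against SecPDG and 4.10 ± 0.68 against enterocytes. The counts of this gene are uncertain, since 399 exon bases, 51.6% of its own, are shared with Chtf18 on the other strand, and reads there cannot be assigned without strand. Chtf18, which takes part in sister chromatid cohesion, averaged 206 ± 50.5 (SD, n = 5) in tuft cells. In stem cells, where Gng13 was at 0, Chtf18 averaged 473 ± 180.1 (SD, n = 3).

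Gnb3 (chromosome 6, 124834240 to 124840275, minus strand, 2632 exon bases), a G protein beta subunit of taste cells and cones, did not follow the other gustducin genes. It ranged from 27.8 to 79.3 normalized counts in tuft cells and from 19.4 to 92.2 in enterocytes, and these ranges overlapped. The EEC libraries differed, with 275 and 0. Stem cells and AbsPro stayed at or below 8.76, and SecPDG at or below 35.4. The mean over all libraries, 42.9, was below the minimum for a call. The log2 fold change of tuft cells was 4.04 ± 1.18 against stem cells (edgeR adjusted p = 0.0079) and -0.25 ± 0.61 against enterocytes (0.79), and the 95% interval of the latter ran from -1.44 to 0.94. Under the scaling of DESeq2 the mean of Gnb3 passed 50. DESeq2 called Gnb3 higher in tuft cells than in stem cells (4.46, DESeq2 adjusted p = 0.0058) and AbsPro (4.63, 0.0064). With edgeR on DESeq2 size factors neither call was made. Genes of families that work in other tissues, such as olfactory and vomeronasal receptors, gave a pooled background, their summed level divided by their summed exon length. In enterocytes it was 0.337 reads per kilobase on the RPKM scale used below, which equals 18.2% of the mean level of Gnb3.

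Itpr3 (chromosome 17, 27057304 to 27122223, plus strand, 9019 exon bases), the IP3 receptor channel, was abundant in every cell type and lowest, by mean, in tuft cells. Its normalized counts in tuft cells were 3890, 2981, 4075, 2869 and 4629. Stem cells held 5870, 5694 and 5194, AbsPro 5971 to 6820 and SecPDG 4659 to 7170. The tuft libraries all lay below those of stem cells, AbsPro and SecPDG, but the log2 fold change of -0.60 ± 0.37 against stem cells was not called (edgeR adjusted p = 0.20), nor was that of -0.62 ± 0.35 against SecPDG (0.20). Against AbsPro it was -0.80 ± 0.37 (edgeR adjusted p = 0.10). Fitted on the 2 cell types alone, tuft cells were called lower than AbsPro (-0.79, edgeR adjusted p = 0.0058) and SecPDG (-0.57, 0.0093), and without EEC replicate 1 they were called lower than AbsPro (-0.84, 0.0038). In enterocytes Itpr3 ranged from 3081 to 8377, overlapping with tuft cells, with a log2 fold change of -0.47 ± 0.33 (edgeR adjusted p = 0.32). That comparison depended on the scaling, and was called lower in tuft cells with DESeq2 size factors at -0.78 (edgeR adjusted p = 0.0037) and with library totals at -0.83 (0.00071).

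The EEC libraries disagreed over Itpr3, at 7074 and 36903 normalized counts. Tuft cells were called lower than EECs, with a log2 fold change of -2.58 ± 0.40 (edgeR adjusted p = 1.7e-06). Without EEC replicate 2 it was -0.93 (edgeR adjusted p = 0.059), and the call was lost. EEC replicate 2, the library of the higher value, had a summed enteroendocrine marker level of 1714000.3 normalized counts against 596852 in the other, and a summed enterocyte marker level of 133223 against 21676. It also had 64.5% of reads on no gene against 89.7%. The part of these differences in the result was not tested.

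Tas1r3 (chromosome 4, 155859268 to 155863362, minus strand, 3523 exon bases), the shared subunit of the sweet and umami receptors, was present at a low level in all cell types. Tuft cells had 53.7, 151, 199.7, 282 and 192 normalized counts. Stem cells had 31.4, 69.8 and 129, AbsPro 69.4 to 165, SecPDG 46.3 to 79.6, enterocytes 73.4 to 146 and EECs 66.7 to 119. Of the 5 tuft libraries, 4 lay above every library of SecPDG, stem cells, enterocytes and EECs, and 1 did not. The log2 fold change of tuft cells was 1.55 ± 0.47 against SecPDG (edgeR adjusted p = 0.025) and 1.18 ± 0.46 against stem cells (0.042), neither of which is a call at 0.01. Without tuft replicate 1, the lowest tuft library, the comparison with SecPDG was called (log2 fold change 1.77, edgeR adjusted p = 0.0093). DESeq2 called it with all libraries (1.72, DESeq2 adjusted p = 0.0078). Against AbsPro, enterocytes and EECs the adjusted p was 0.20, 0.16 and 0.26, and the 95% interval against AbsPro ran from -0.12 to 1.63.

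Chat (chromosome 14, 32408203 to 32465989, minus strand, 4703 exon bases), choline acetyltransferase, was the one member called higher in tuft cells than in 4 cell types that was not called against EECs. In tuft cells it had 635, 356, 396, 1456 and 549 normalized counts, and in the EEC libraries 607 and 228. These ranges overlapped, and only 2 of the 5 tuft libraries exceeded both EEC libraries. The log2 fold change was 0.76 ± 0.43 (edgeR adjusted p = 0.20), with a 95% interval from -0.07 to 1.60, and by DESeq2 it was -0.07. Without EEC replicate 1 it was 1.70 (edgeR adjusted p = 0.023) and without EEC replicate 2 it was 0.16 (0.81). Enterocytes held 98.1, 103, 134, 66.2 and 102 normalized counts, wholly above the stem, AbsPro and SecPDG libraries, whose highest value was 16.0. The log2 fold change of tuft cells was 6.51 ± 0.63 against stem cells (edgeR adjusted p = 7e-13), 6.21 ± 0.59 against SecPDG (3.5e-13) and 2.75 ± 0.37 against enterocytes (1.8e-08). The gene spans Slc18a3, the vesicular acetylcholine transporter, on the same strand, with no exon base in common.

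**Figure D2:**
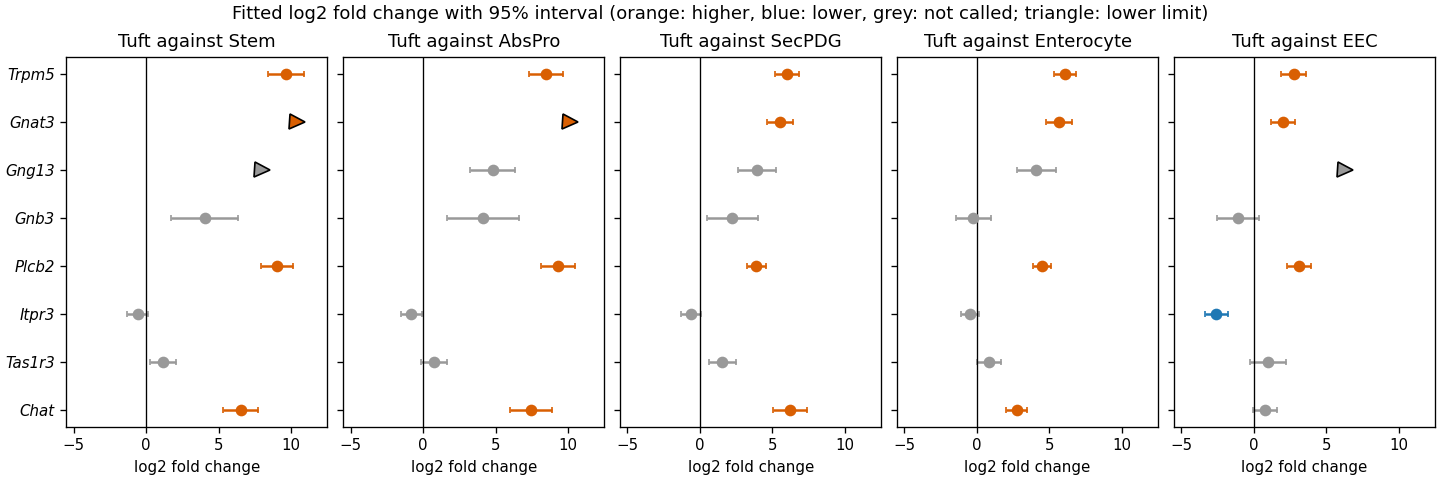
Fitted log2 fold change of tuft cells against each of the other 5 cell types for the 8 genes, with its 95% interval, in orange where called higher, blue where called lower and grey where not called. Triangles are lower limits for genes with 0 counts in the other cell type, and Itpr3 against EECs is the one value called below 0.

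The other cell types were compared with stem cells. In AbsPro no member was called higher, beside 0.496% of all genes. No member had an unadjusted p under 0.05 there by edgeR, and DESeq2 called 0 members too. SecPDG was higher than stem cells in 2 members, Plcb2 (log2 fold change 5.13 ± 0.69, edgeR adjusted p = 5.3e-08) and Trpm5 (3.66 ± 0.82, 0.0012), beside 3.38% of all genes. Without stem replicate 1 or stem replicate 2 the adjusted p of Trpm5 was 0.011, and 1 member was called. Enterocytes were higher than stem cells in 3 members, beside 10.7% of all genes. These were Plcb2 (4.55 ± 0.73, edgeR adjusted p = 1.4e-06), Trpm5 (3.58 ± 0.82, 0.00038) and Chat (3.76 ± 0.84, 0.00023). EECs were higher than stem cells in 5 members, beside 10.8% of all genes. They were Trpm5 (6.91 ± 0.70, edgeR adjusted p = 7.1e-12), Plcb2 (5.92 ± 0.72, 1.4e-09), Chat (5.75 ± 0.77, 1.5e-08), Itpr3 (1.98 ± 0.46, 0.00044) and Gnat3, which was at least 342-fold higher (7.8e-08). Without EEC replicate 2, Itpr3 stood at 0.34 (edgeR adjusted p = 0.54) and 4 members were called.

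As a share of the mean of tuft cells, the level outside tuft cells differed between members. In SecPDG, Trpm5 stood at 1.58%, Gnat3 at 2.08% and Chat at 1.29%, but Plcb2 at 6.66%, with a range over the 4 libraries of 4.46% to 9.51%. The range of Plcb2 did not overlap with that of Trpm5, 1.27% to 1.95%. Among the tuft markers in SecPDG, the kinase Dclk1 stood at 0.699%, whereas the transcription factor Pou2f3 stood at 5.73%. Il17rb stood at 8.66% there (4.96% to 15.6%), above Plcb2 by mean. In enterocytes, Trpm5 was at 1.49%, Gnat3 at 2.07% and Plcb2 at 4.51%, while Chat was at 14.9%. The range of Chat there, 9.75% to 19.8%, did not overlap with that of Trpm5, 0.844% to 2.33%. Among the tuft markers there, Il17rb stood at 18.4% (11.2% to 31.5%), above Chat, and Dclk1 at 0.845%. The pooled background equalled 21.5% of the level of Chat in enterocytes, 20.4% of that of Trpm5, 15.8% of that of Plcb2 and 33.0% of that of Gnat3. In EECs, Trpm5 was at 14.6%, Gnat3 at 23.8%, Plcb2 at 11.4% and Chat at 61.6%, while Gng13 had no count. Tuft markers in EECs ran from 9.79% (Avil) to 41.7% (Il17rb), and neural markers summed to 1802 and 4453 normalized counts in the EEC libraries against 86.7 to 188 in tuft cells. The part of tuft or other cells in the levels outside the tuft sort was not tested.

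**Figure D3:**
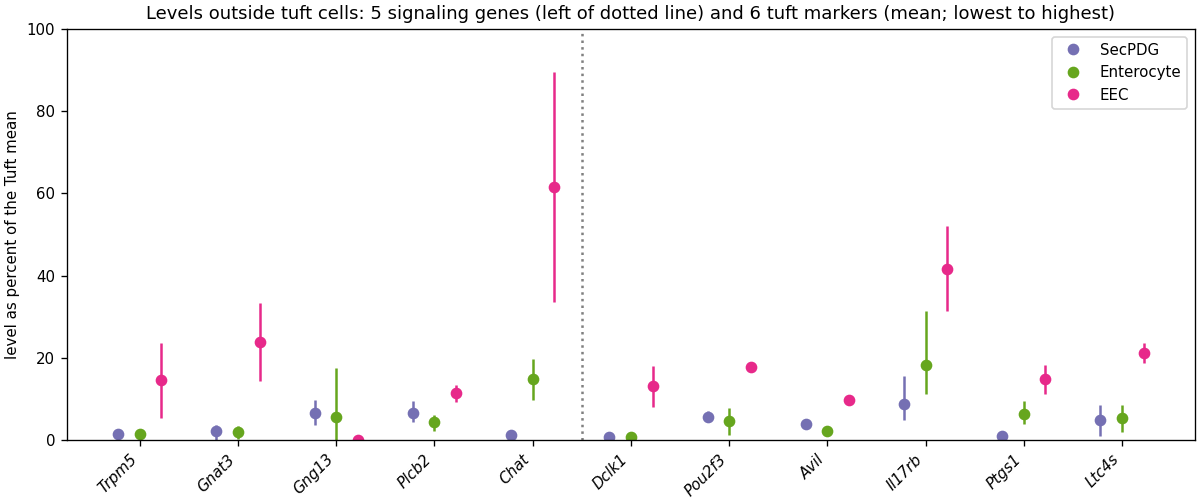
Level in SecPDG, enterocytes and EECs as a percentage of the tuft mean, for 5 signaling genes left of the dotted line and 6 tuft markers right of it. Points are means and lines run from the lowest to the highest library, and Chat stands at 61.6% in EECs and 14.9% in enterocytes, above Trpm5 at 14.6% and 1.49%.

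Levels of different genes were then compared per length, as reads per kilobase of exon at a fixed scaled library size (RPKM). In tuft cells, Trpm5 was the most abundant member at 111 ± 37.6 RPKM (SD, n = 5). Gnat3 at 49.4 ± 14.3 and Plcb2 at 47.3 ± 19.3 followed, and these did not differ beyond their spread. Itpr3 stood at 29.9 ± 6.08, Gng13 at 15.5 ± 8.40 and Chat at 10.5 ± 6.99, and the last pair overlapped. The level of Gng13 per length, and so its place in this order, is uncertain. Its full exon length was used, although 51.6% of it is shared with Chtf18. Tas1r3 at 3.65 ± 1.72 and Gnb3 at 1.54 ± 0.571 were lowest. Within each tuft library Gnat3 was 40.9% to 51.2% of the RPKM of Trpm5 and Plcb2 was 35.3% to 51.4%, whereas Gng13 ran from 3.45% to 22.7%. Over the 5 tuft libraries the largest value exceeded the smallest by 2.44 times for Gnat3, 2.65 times for Trpm5, 3.14 times for Plcb2 and 6.05 times for Gng13.

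Each member was next set beside its paralogues in lists taken whole. Among 16 G protein alpha subunits, Gnat3 made up 12.4% ± 2.64 (SD, n = 5) of the summed RPKM in tuft cells and 0.310% ± 0.258 (SD, n = 4) in SecPDG. It ranked behind Gnai2 at 110.2 RPKM, Gnas at 59.8 and Gnai3 at 51.1. Of the other 15 alpha subunits, 4 were called higher and 0 lower in tuft cells than in stem cells, and 1 was called higher than in SecPDG, where DESeq2 called 4. The 1 called by edgeR was Gnai1, an inhibitory alpha subunit, at 41.2 RPKM in tuft cells and 10.2 in SecPDG, with a log2 fold change of 2.01 ± 0.30 (edgeR adjusted p = 1.6e-06). Gnai1 was also higher in tuft cells than in stem cells (3.66 ± 0.37), AbsPro (3.44 ± 0.37) and enterocytes (3.65 ± 0.33). It kept its direction with both other scalings.

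Among 5 beta subunits, Gnb3 made up 1.01% ± 0.374 in tuft cells, where Gnb1 stood at 91.6 RPKM and Gnb2 at 57.8. Gnb4 was called higher in tuft cells than in stem cells, 1 of the other 4 beta subunits, at 0.64 against 0.06 RPKM. This call was kept in 27 of 33 alternatives, and the count was 0 without any 1 of the 3 stem libraries and without tuft replicate 1. The pooled background was also higher in tuft cells, at 0.171 RPKM against 0.0146 in stem cells, and its part in the call was not tested. Of 12 gamma subunits, Gng13 made up 17.7% ± 7.11 in tuft cells and ranked behind Gng12 at 27.8 RPKM and Gng11 at 17.0. This share and rank are uncertain, since 51.6% of the exon bases of Gng13 are shared with Chtf18 and its full length was used. Of the other 11 gamma subunits, 5 reach the minimum mean, and edgeR called 0 between tuft cells and SecPDG, with 2 at an unadjusted p under 0.05 and 2 called higher by DESeq2.

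Within phospholipase C beta, the leading gene differed between cell types. Plcb2 made up 45.5% ± 11.6 (SD, n = 5) of the summed RPKM of the 4 family members in tuft cells, from 33.7% to 64.3%. In stem cells it made up 0.0742% ± 0.0463 (SD, n = 3), and Plcb3 led there at 116 RPKM against 33.0 in tuft cells. Plcb3 was called lower in tuft cells than in stem cells (log2 fold change -1.81 ± 0.37, edgeR adjusted p = 0.00018) and AbsPro (-1.66 ± 0.37, 0.00077). The other 2 paralogues, Plcb1 (4.44 ± 0.50, edgeR adjusted p = 5.5e-10) and Plcb4 (1.70 ± 0.33, 9.7e-05), were called higher than in stem cells, and 0 of the 3 were called between tuft cells and SecPDG by edgeR or DESeq2, with 2 at an unadjusted p under 0.05.

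Among the 3 IP3 receptors, Itpr3 made up 80.9% to 87.1% of the summed RPKM, by mean, in the other 5 cell types and 50% ± 8.99 (SD, n = 5) in tuft cells. The next IP3 receptor in tuft cells was Itpr2, at 25.3 RPKM against 4.10 in stem cells and 4.73 in SecPDG. It was called higher in tuft cells than in stem cells (log2 fold change 2.63 ± 0.35, edgeR adjusted p = 4.4e-08), SecPDG (2.42 ± 0.31, 5.1e-08), AbsPro and enterocytes. Against EECs it was 1.36 ± 0.39 (adjusted p = 0.0084), a call kept in 20 of 33 alternatives and lost with DESeq2, with both other scalings and without either EEC library. Itpr1 was not called by edgeR between tuft cells and any other cell type.

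**Figure D4:**
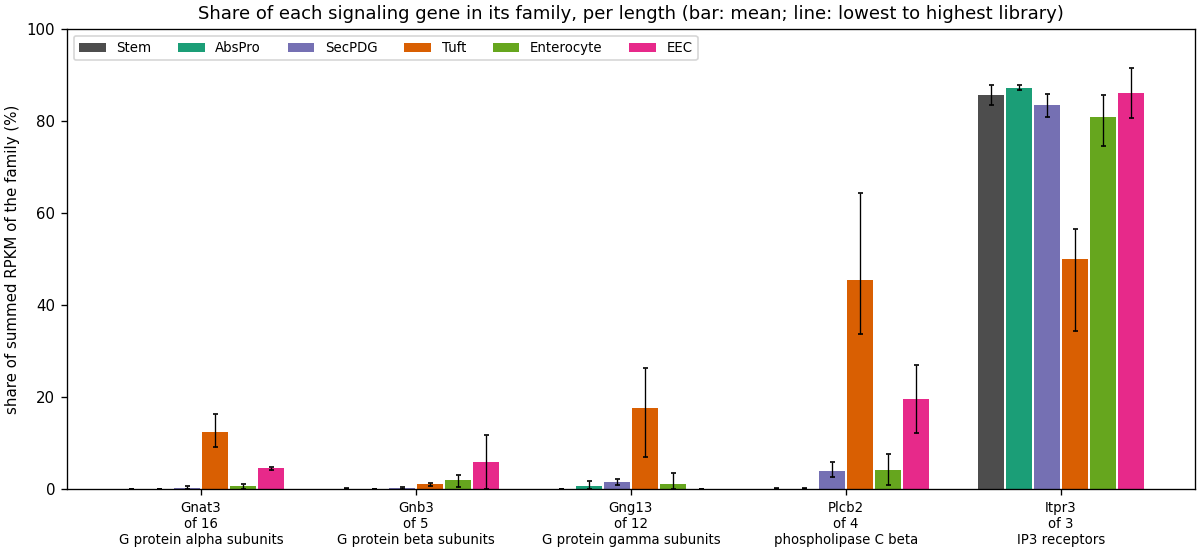
Share of Gnat3, Gnb3, Gng13, Plcb2 and Itpr3 in the summed RPKM of their gene family, in percent, by cell type, with bars at the mean and lines from the lowest to the highest library. In tuft cells Plcb2 reaches 45.5% and Gnat3 12.4%, and the share of Itpr3 is 50%.

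The taste receptors themselves were low. Of 37 taste receptor genes other than Tas1r3, comprising Tas1r1, Tas1r2 and the Tas2r bitter receptors, 28 passed the filter on low counts, none reached a mean of 50 normalized counts, and so 0 could be called in any of the 9 comparisons. Between tuft cells and SecPDG 5 had an unadjusted p under 0.05. Per gene they averaged 0.405 RPKM in tuft libraries, 0.732 in enterocyte libraries and 0.892 in EEC libraries. The averages were lower in the other groups, at 0.0940 in stem cells, 0.0331 in AbsPro and 0.0616 in SecPDG. The 1518 background genes with a known exon length, taken here as the mean over genes and not pooled, averaged 0.246 RPKM per gene in tuft libraries, 0.479 in enterocyte libraries and 0.594 in EEC libraries, and 0.0226 in stem cells, 0.0235 in AbsPro and 0.0311 in SecPDG. By mean, the taste receptors lay above the background in each cell type, and both were highest in EECs and lowest in stem cells or AbsPro. Their ranges over libraries overlapped in each cell type. Both levels come from the same libraries, so these ranges cannot show whether the receptors lay above the background within a library. In stem cells the 37 receptors summed to 3.48 RPKM, from 0.196 to 6.53 between libraries, and Tas2r134 alone averaged 1.18. The most abundant other receptor in tuft cells was Tas2r118 at 1.90 RPKM. Tas1r3 stood at 3.65 RPKM in tuft cells, and the pooled background, 0.171 RPKM in tuft cells and 0.424 in EECs, equalled 4.70% and 21.9% of its level there.

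**Figure D5:**
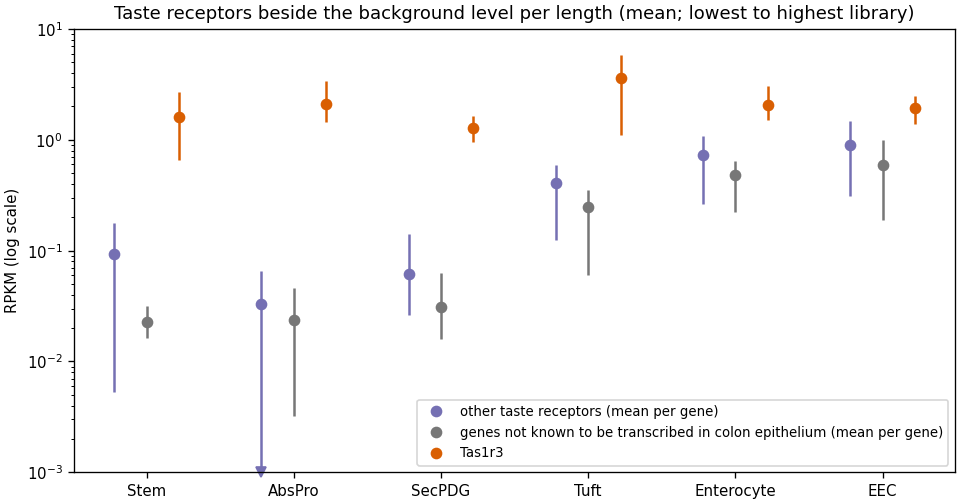
RPKM on a log scale of Tas1r3, of the 37 other taste receptors (mean per gene) and of the background genes (mean per gene), by cell type, with points at the mean and lines from the lowest to the highest library. The mean of the 37 receptors lies above that of the background in each cell type, and the ranges of libraries overlap. The ranges do not pair the values of a library. On the log scale the means differ by the most in stem cells (0.0940 against 0.0226). The receptors are at 0 in 1 AbsPro library (triangle at the lower edge), and Tas1r3 lies above the background in each cell type.

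Further genes of the pathway were counted by list. Of 9 downstream channels in the files besides Trpm5, among them the close relative Trpm4 and potassium channels, edgeR called 0 higher in tuft cells than in any other cell type, whereas DESeq2 called 1 higher than in AbsPro, and 2 were called lower than in stem cells by both. Against stem cells 6 of the 9 had an unadjusted p under 0.05. The 2 lower genes were Kcnq1 (log2 fold change -2.0 ± 0.29, edgeR adjusted p = 2.5e-07) and Kcnk5 (-1.39 ± 0.33, 0.0012). Trpm5 made up 72.4% ± 6.84 (SD, n = 5) of the summed RPKM of Trpm5 and the 8 channels with a known exon length in tuft cells, and Trpm4 stood at 11.3 RPKM in tuft cells and 14.2 in stem cells. Of the 2 regulators measured, Rgs21 and Ric8b, edgeR called 0 in any comparison of tuft cells, while DESeq2 called 1 higher than in SecPDG, where 1 had an unadjusted p under 0.05.

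Of 14 genes of acetylcholine handling besides Chat, 3 were called higher and 1 lower in tuft cells than in stem cells, and edgeR called 0 between tuft cells and SecPDG, where 7 had an unadjusted p under 0.05 and DESeq2 called 2 higher. The vesicular transporter Slc18a3 stood at 1.28 RPKM in tuft cells, 1.17 in enterocytes and 0 in stem cells, and the choline transporter Slc5a7 stood at 0.376 in tuft cells. Neither reaches the minimum mean, so they could not be called. The edgeR adjusted p of Slc18a3 was 0.0016 against stem cells, 0.0040 against AbsPro and 0.0093 against SecPDG. The pooled background was 0.171 RPKM in tuft cells, 0.337 in enterocytes and 0.0146 in stem cells. Between tuft cells and stem cells, 512 of 1364 background genes had an unadjusted edgeR p under 0.05. The part of the background in the values of Slc18a3 was not tested. The 3 higher genes were receptors, the muscarinic Chrm1 (log2 fold change 2.59 ± 0.43, edgeR adjusted p = 5.4e-06) and Chrm3 (3.10 ± 0.58, 5.3e-05) and the nicotinic subunit Chrnb4 (4.59 ± 0.52, 6.2e-10). In SecPDG these 3 stood at 8.27, 6.28 and 11.3 RPKM, against 8.09, 4.58 and 13.7 in tuft cells, and edgeR called 0 of them between the groups. Bche, a cholinesterase, was lower in tuft cells than in stem cells (-2.05 ± 0.33, edgeR adjusted p = 4.4e-06), AbsPro and enterocytes.

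Likeness between genes is given as a description, since all values share the same 22 libraries and their cell types. Trpm5 and Plcb2 were each other's nearest member (Pearson's r = 0.95 over 22 libraries of log2 CPM), and Gnat3 was nearest to Trpm5 (0.94) and Chat to Gnat3 (0.88). Gng13 was nearest to Plcb2 (0.78), Gnb3 to Chat (0.78) and Tas1r3 to Gng13 (0.58). Itpr3 had no positive correlation with any member, and its highest was -0.15. Of 13182 other genes with a mean of at least 50, the 9 most like the mean profile of the 8 members were Pygl (r = 0.97), Ptgs1, Alox5ap, Bmx, 1810046K07Rik, Ppp1r14c, Dclk1, Alox5 and Ly6g6f (0.95). They include Ptgs1, Alox5 and Alox5ap, which act in the synthesis of prostaglandins and leukotrienes, the glycogen phosphorylase Pygl and the kinases Bmx and Dclk1. Alox5 stood at 3690 normalized counts in tuft cells and 544 in EECs, and Pygl at 2936 and 954.

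Other readouts were available for Itpr3 alone among the members. It had 7 entries of skipped exons in the tables that compare stem cells with AbsPro, SecPDG, enterocytes and EECs, and none in that of tuft cells. Every stem library with at least 10 informative counts had full inclusion. The lowest value of another library was 81.5%, in an enterocyte library, for the 193-base exon at chromosome 17, 27117733 to 27117925. In all, 4 of the 7 entries could be tested by the exact permutation test (two-sided, adjusted exact p = 1). With 3 stem libraries against 4 or 5 others, the adjusted p cannot reach 0.05, so this test cannot show whether inclusion differed. The share of the distal polyadenylation site of Itpr3 was 0.627 ± 0.365 (SD, n = 3) in stem libraries, against 0.630 ± 0.320 (SD, n = 3) for AbsPro, and in the separate table of EECs it was 0.430 ± 0.248 (n = 3) in stem cells and 0.340 ± 0.269 (n = 2) in EECs. The exact permutation p was 1 and 0.80, and neither design can reach 0.05.

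The scaling of the libraries shifted all comparisons with mature cells. With DESeq2 size factors in place of TMM, the median log2 fold change over the genes that reach the minimum mean moved from -0.30 to 0.35 between enterocytes and stem cells, from -0.30 to 0.48 between EECs and stem cells, from 0.21 to -0.22 between tuft cells and enterocytes and from 0.22 to -0.32 between tuft cells and EECs. The split of calls over all genes moved from 2448 higher and 2609 lower to 4583 and 1478 between enterocytes and stem cells, and from 2461 and 2080 to 4395 and 1276 between EECs and stem cells. For tuft cells it moved from 1316 and 605 to 1156 and 1206 against enterocytes, and from 1038 and 1080 to 943 and 2012 against EECs. With library totals, the split between SecPDG and stem cells moved from 770 and 362 to 828 and 1044. Every member called here kept its direction with both scalings.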

How the data were processed

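RNA-seq counts of 22 libraries from 6 sorted cell types were used as deposited. According to the submitters' processing notes, the authors checked reads with FastQC 0.11.7, aligned them with STAR 2.5.2a to mm10 and made counts per gene with HTSeq 0.6.1p1 without strand. The authors also deposited counts of exon inclusion and skipping (rMATS) and the fraction of distal polyadenylation site usage (DaPars), whose columns do not name libraries beyond their cell type. Tables of local splicing without a value per library, and the authors' own comparison columns of fold changes and p-values, were not used.

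Genes were filtered with filterByExpr, scaled by TMM and fitted in 1 quasi-likelihood model of all libraries by cell type (edgeR 4.0.16, R 4.3.3), with Benjamini-Hochberg adjustment over 22781 genes. The variant of the quasi-likelihood method (legacy = FALSE) was set after counts of calls under both variants had been seen, and the other variant is among the alternatives. Groups at 0 were given a floor of 3 counts over the group. RPKM used exon lengths of GENCODE M21 on GRCm38, the same build as mm10, and promoters came from RefSeq. DESeq2 1.42.0 was the alternative test. Exons needed at least 10 informative counts per library. The scripts were tested on simulated data.

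The members and lists were chosen with earlier results of these data known. The text gives all 8 members, each list by its counts, the leading paralogue in tuft cells and any called against SecPDG, and the genes most like the mean profile, of which the rule takes 10 and an item is not reported here. Other genes named were chosen after their values were seen. Libraries of a group came from separate mice or pools, and no pair agreed within sampling noise. The alternatives were other scalings, no filter, other thresholds, cell types fitted alone, thinned counts, a replicate block and each library left out in turn.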

Additional observations from a re-analysis of the deposited data

Results flagged for a closer look

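In 3 of 24 groups of 4 or 5 libraries, 1 library stood apart from the others by Dixon's test, which chance gives in about 1 of 20 groups. Gnb3 had 35.4 normalized counts in SecPDG replicate 3, against 0 to 2.94 in the other SecPDG libraries. Gnb3 had 19.4 in enterocyte replicate 4, against 72.3 to 92.2 in the other enterocyte libraries. Chat had 1456 in tuft replicate 4, against 356 to 635 in the other tuft libraries.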

How the results depend on the processing

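Members called higher in tuft cells than in EECs numbered 3, but 1 with DESeq2's Wald test and 1 with the earlier quasi-likelihood method of edgeR. The variant used here, which gave the 3, was the one set after calls under both variants had been seen. Members called higher in enterocytes than in stem cells numbered 3, but 5 with DESeq2's Wald test and 5 with DESeq2 size factors. Over all genes the number higher there was 2448, but 3854 and 4583 in these settings. Between tuft cells and EECs it was 1038 over all genes, but 1384 with DESeq2's Wald test. For EECs against stem cells the number of members higher was 5, but 3 with the 2 cell types fitted alone. Leaving out 1 library at a time gave 1 to 2 members for SecPDG against stem cells. The cause was not tested. No member comparison called in the report reversed. Over all log2 fold changes of members and alternatives, 2317 values kept their side of the threshold, 37 passed it newly and 12 no longer passed it. With a replicate block, 2 members were called higher in tuft cells than in EECs (Gnat3 at an edgeR adjusted p of 0.015), and every other count of members was as without it. The numbers were not used to pair the samples in the main fit. Same-numbered libraries correlated at a median r of 0.002 over 44 pairs, from -0.39 to 0.50, and 6 of 22 libraries correlated best with their own number. These values cannot show whether some pairs shared a mouse or a sort. The 2 EEC libraries, 1 of them with 4122122 counts on genes, limit every comparison with EECs.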
